A study of Mus musculus with 9 samples.

Results

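Acyl-CoA thioesterases cut acyl-CoA into a free fatty acid and coenzyme A. The members examined here are 9 of the 23420 genes in the deposited table, chosen by symbol: Acot1, Acot7 and Acot12 (cytosolic), Acot2, Acot9 and Acot13 (mitochondrial, with Acot13 also found in the cytosol) and Acot3, Acot4 and Acot8 (peroxisomal). The measurements come from RNA sequencing of kidney cortex of male C57/BL6 mice, with RNA from a piece of about 50 mg per sample. The fed group (5 libraries, Fed 1 to Fed 5) ate chow freely, and the fasted group (4 libraries, Fasted 1 to Fasted 4) had no food for 16 h before death. The chow diet and the light cycle were common to both. The labels give no age, allele, transgene, batch or pairing. They do not say in words that each library is a separate mouse, so p-values take the library as the unit.

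Cells burn fatty acids as acyl-CoA esters, and the pool of coenzyme A in each compartment is limited. Synthetases load fatty acids onto coenzyme A and thioesterases unload them, so both enzyme groups set how much acyl-CoA and how much free coenzyme A a compartment holds. In the kidney, proximal tubule cells rely heavily on fatty acid oxidation in mitochondria and peroxisomes, and several Acot genes are known to be switched on by PPAR alpha, a fatty acid receptor active during food shortage.

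The family falls into 2 kinds of protein that arose separately. Acot1 to Acot6 are type I enzymes, related genes that lie side by side on chromosome 12 and of which Acot1 and Acot2 are near copies, and the other members belong to the type II enzymes, which share the reaction but not the sequence. The promoters of the genes that changed most, and of Acot4 as a neighbor that changed little, are shown so that neighbors with like coding sequences and unequal changes can be set side by side. Each window runs 5′ to 3′ on the gene's own strand from 250 bases before to 50 bases after the RefSeq start on GRCm38.p6. Capitals mark the nuclear receptor half-site AGGTCA, read on either strand, or a match to the direct repeat AGGTCANAGGTCA (named DR1, to which PPAR alpha binds with RXR) with at most 2 mismatches.
Acot2, chr12:83987611-83987910, plus strand: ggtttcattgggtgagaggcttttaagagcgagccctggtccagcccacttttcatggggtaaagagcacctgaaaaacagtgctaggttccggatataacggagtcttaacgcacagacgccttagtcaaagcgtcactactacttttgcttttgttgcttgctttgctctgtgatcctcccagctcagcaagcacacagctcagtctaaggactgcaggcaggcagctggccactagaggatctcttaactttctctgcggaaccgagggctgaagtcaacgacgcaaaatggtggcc
Acot1, chr12:84009252-84009551, plus strand: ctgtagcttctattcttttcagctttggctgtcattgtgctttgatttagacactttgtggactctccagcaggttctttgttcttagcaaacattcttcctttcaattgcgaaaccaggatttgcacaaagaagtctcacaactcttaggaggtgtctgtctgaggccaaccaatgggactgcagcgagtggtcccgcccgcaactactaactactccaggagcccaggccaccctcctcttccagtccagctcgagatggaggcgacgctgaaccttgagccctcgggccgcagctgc
Acot4, chr12:84038129-84038428, plus strand: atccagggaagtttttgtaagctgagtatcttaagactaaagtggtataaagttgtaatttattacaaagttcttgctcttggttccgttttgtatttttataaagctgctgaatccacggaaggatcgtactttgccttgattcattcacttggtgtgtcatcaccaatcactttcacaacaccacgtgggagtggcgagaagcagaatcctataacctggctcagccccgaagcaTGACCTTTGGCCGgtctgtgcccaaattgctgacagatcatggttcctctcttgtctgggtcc
Acot3, chr12:84051894-84052193, plus strand: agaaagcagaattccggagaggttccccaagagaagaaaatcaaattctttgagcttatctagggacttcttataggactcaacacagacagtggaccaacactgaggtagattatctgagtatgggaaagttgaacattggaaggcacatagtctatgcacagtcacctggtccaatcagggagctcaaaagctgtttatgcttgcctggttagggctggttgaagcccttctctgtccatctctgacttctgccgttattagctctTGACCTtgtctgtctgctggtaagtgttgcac
Acot12, chr13:91741271-91741570, plus strand: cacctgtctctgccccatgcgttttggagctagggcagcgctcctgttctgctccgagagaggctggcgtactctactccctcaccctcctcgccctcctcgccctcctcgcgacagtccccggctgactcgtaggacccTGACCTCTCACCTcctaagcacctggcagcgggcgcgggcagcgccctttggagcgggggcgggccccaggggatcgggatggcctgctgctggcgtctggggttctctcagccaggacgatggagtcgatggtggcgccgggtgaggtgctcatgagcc

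By symbol, 8 of the 9 members matched a promoter in the RefSeq table. A half-site was found in 3 of them (Acot3, Acot4 and Acot12) and a DR1 match in 2 (Acot4 and Acot12), against 16.0% and 3.81% of 27025 promoters of the same length, 1 per gene. The DR1 match of Acot12 has 1 mismatch and that of Acot4 has 2, and each includes that promoter's half-site. The windows of Acot1, Acot2, Acot7, Acot8 and Acot9 held neither set of letters, which says only that they are not in this window.

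Each library held 18902645 to 32469467 reads on genes, and the fewest reads of any member in any library was 200. Proximal tubule markers were abundant in every library, with a summed level of 418562 to 593777 normalized counts in fed and 366290 to 424973 in fasted kidneys (6 of 6 measured, 1 called lower, none higher). The lowest fed sum was that of Fed 5, and the other fed libraries, from 491444 up, lay above all fasted ones. Outside Fed 5, this also held for Lrp2, Slc34a1, Slc5a2 and Slc5a12 singly. It did not hold for Cubn (41705 to 53241 in fed, 36787 to 50160 in fasted) or Slc22a6 (19098 to 24270 and 20287 to 29236), where the groups overlapped. Of the adrenal cortex markers, Cyp11b1 and Cyp11b2 were at 0 in every library. The third, Star, had 174 to 308 in fed and 224 to 282 in fasted libraries, and its source was not tested. Skeletal muscle markers summed to at most 5.37. Adipocyte markers summed to 1.07 to 6.58 in fed and 3.84 to 72.0 in fasted libraries, and their part in the results was not tested. Of these 4 genes Plin1 alone reached the mean of 10 for testing, through the fasted libraries and mainly Fasted 2 (70.7, against 1.92 to 10.7 in the other fasted libraries and at most 1.84 in fed ones), so no call is given for it. Libraries that stood apart were Fed 3 and Fasted 1, where the ribosomal entry Rn45s took 5.53% and 2.36% of the counts against 0.513% to 1.38% elsewhere, and Fed 5. Among fed libraries, Fed 3 was lowest for 7 of 9 members and Fed 5 highest for 7 of 9, and the same was not counted over all genes.

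Of the 9 members, 6 rose in the fasted kidneys and none fell (limma, Benjamini-Hochberg adjusted p under 0.05 over all genes tested). Among all 15098 genes tested, 5.72% rose and 5.25% fell. The median log2 change of the 9 members was 0.77, against 0.00089 over all genes tested. Of these, 4 were at least 2-fold higher, which held for 0.954% of all genes tested. In 6 members every fasted library lay above every fed library, as in 7.62% of all genes tested, and in 1, Acot13, every fasted library lay below, as in 6.64%. Levels are normalized counts, with the mean ± SD over libraries (n = 5 fed, n = 4 fasted). A log2 change is the fasted minus the fed mean of log2(value + 1), given with its standard error (SE). In bulk tissue, fewer cells of a type and less RNA per cell cannot be told apart.

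**Figure D1:**
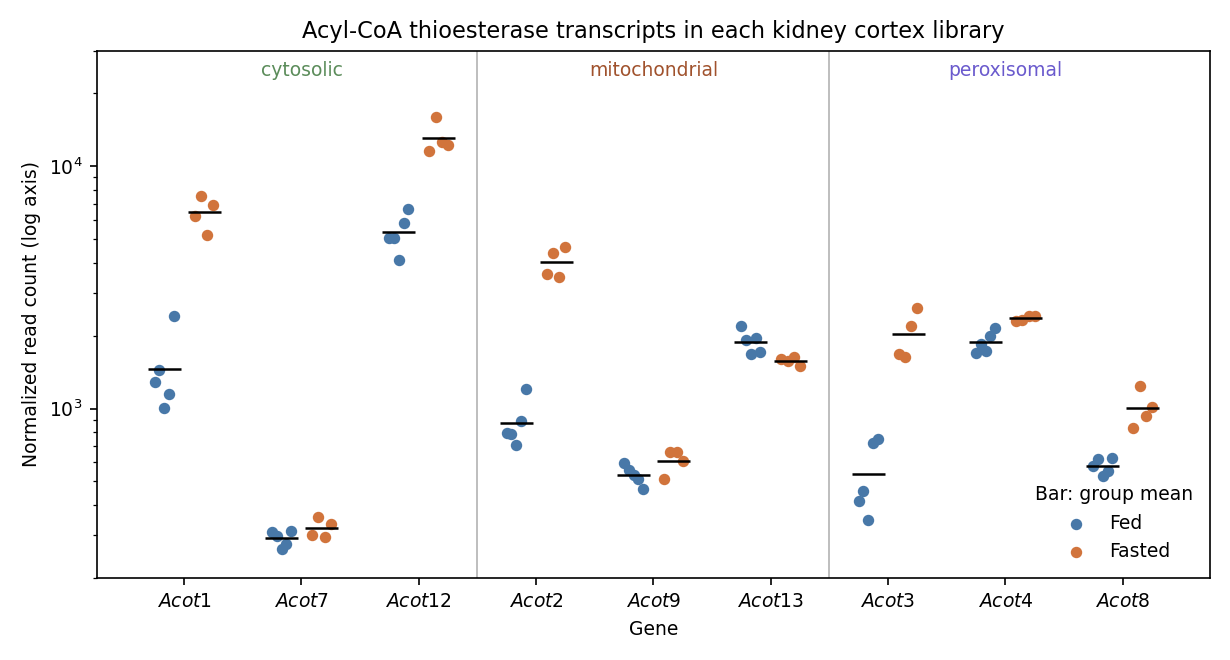
Normalized read counts (log axis) of the 9 thioesterase transcripts in each library, grouped by compartment; each point is 1 library and each black bar a group mean. The fasted points of Acot1, Acot2 and Acot3 lie far above the fed points, those of Acot7 and Acot9 overlap with them, and those of Acot13 lie just below.

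Among the cytosolic members, Acot1 and Acot12 rose and Acot7 did not pass. Acot1 cleaves long-chain acyl-CoA outside the organelles. Its fed libraries had 1287, 1443, 1002, 1145 and 2404 normalized counts (Fed 1 to Fed 5), and its fasted libraries 6232, 7576, 5187 and 6904 (Fasted 1 to Fasted 4). The groups did not overlap, and Fed 5 was well above the other fed libraries. The change was 2.21 (SE 0.22, limma adjusted p = 0.000208), from 1456 ± 555 to 6475 ± 1019.

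Acot12 hydrolyzes acetyl-CoA. It had 5074, 5051, 4104, 5809 and 6676 in the fed libraries and 11562, 16042, 12586 and 12251 in the fasted ones. All fasted values lay above all fed values, and Fasted 2 was the highest. The change was 1.30 (SE 0.14, limma adjusted p = 0.000317). Acot7, an enzyme best known from brain that prefers arachidonoyl-CoA, had 263 to 312 in fed and 295 to 356 in fasted kidneys, with overlapping groups and no pass (log2 change 0.14, SE 0.09, limma adjusted p = 0.36).

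Of the mitochondrial members, 1 rose and 2 did not pass. Acot2, the matrix counterpart of Acot1, had 790, 785, 706, 885 and 1207 in the fed libraries and 3597, 4369, 3504 and 4646 in the fasted ones. The lowest fasted library lay far above the highest fed one, again Fed 5. Acot2 changed by 2.22 (SE 0.15, limma adjusted p = 2.45e-05), from 875 ± 196 to 4029 ± 565. Acot9, which acts on short- and long-chain acyl-CoA in mitochondria, had 533 ± 48.3 in fed and 610 ± 70.6 in fasted kidneys, with overlapping libraries (log2 change 0.19, SE 0.10, limma adjusted p = 0.24).

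Acot13, also called Them2, acts on medium- and long-chain acyl-CoA and was the member with a negative value. It had 2199, 1910, 1681, 1959 and 1706 in the fed libraries and 1607, 1567, 1633 and 1497 in the fasted ones. The groups did not overlap, yet the gap between them was small beside the fed spread, and the change of -0.26 (SE 0.08) did not pass (limma adjusted p = 0.070). It passed without Fed 3 (-0.30, adjusted p = 0.037), without Fed 5 (-0.29, adjusted p = 0.043) and with DESeq2 on the recovered reads (-0.26, adjusted p = 0.032), and the adjusted p reached 0.19 without Fasted 4. The authors' deposited table also gives it an adjusted p of 0.033.

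All 3 peroxisomal members rose, by unequal amounts. Acot3 is specific for long-chain acyl-CoA in peroxisomes. It had 416, 455, 347, 720 and 750 in the fed libraries and 1678, 1639, 2194 and 2601 in the fasted ones. Fed 4 and Fed 5 lay above the other fed libraries, and all fed values lay below the fasted ones. The change was 1.95 (SE 0.23, limma adjusted p = 0.00064).

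Acot8, a peroxisomal enzyme of broad range that includes bile acid CoA esters, had 580, 621, 528, 554 and 625 in the fed libraries and 831, 1243, 932 and 1011 in the fasted ones. The fed libraries were close together, and Fasted 2 was the highest of all. The change was 0.77 (SE 0.11, limma adjusted p = 0.00166). Acot4, which hydrolyzes succinyl-CoA and glutaryl-CoA and so handles products of dicarboxylic acid oxidation, had 1692, 1848, 1725, 1994 and 2154 in the fed libraries and 2300, 2319, 2404 and 2399 in the fasted ones. The lowest fasted library was close to Fed 5. The change was 0.33 (SE 0.08, limma adjusted p = 0.020), and it did not pass without Fasted 3 (adjusted p = 0.058), without Fasted 4 (0.063) or without Fed 3 and Fasted 1 together (0.063).

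**Figure D2:**
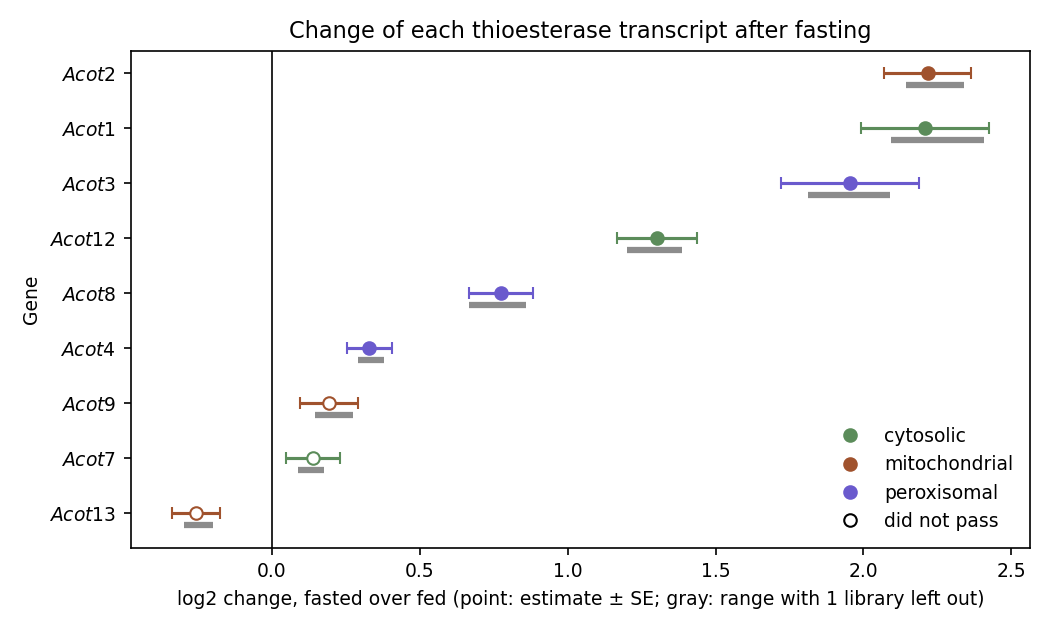
Log2 change of each member, fasted over fed, as the estimate with its SE (horizontal axis); filled points passed at an adjusted p under 0.05, open points did not, and the gray bar is the range with 1 library left out at a time. Acot2, Acot1 and Acot3 lie near 2, Acot12 at 1.30, and the remaining members below 1, with Acot13 at -0.26.

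The authors' deposited table, from their own fit, gives adjusted p-values under 0.05 to 7 of the 9 members, the 6 above and Acot13. Its log2 changes are 1.97 for Acot2, 1.75 for Acot1, 1.53 for Acot3, 1.18 for Acot12, 0.73 for Acot8, 0.31 for Acot4 and -0.25 for Acot13 in the authors' deposited table. The 9 signs are the same as in limma. Acot2 has the largest change among the members there. In limma Acot2 (2.22) and Acot1 (2.21) lay closer together, and their order turned without Fed 2, Fed 5, Fasted 3 or Fasted 4. The deposited changes of Acot1 and Acot3 are below those of DESeq2 on the recovered reads (2.15 and 1.92). The reason was not tested.

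Fed 5 had the highest value among the fed libraries in all 6 members that rose and in 7 of 9 members. How often Fed 5 was highest over all genes was not counted, so this is not shown to be particular to the family. Its Acot1 value was 1.97 times the mean of the other fed libraries, against 1.53 for Acot2, 1.55 for Acot3 and 1.33 for Acot12. It stood at 0.85 for Acot9 and 0.88 for Acot13. The omega-hydroxylase gene Cyp4a14, a strong PPAR alpha target, had 15244 normalized counts in Fed 5 and at most 1379 in the other fed libraries, while Pdk4, another such target, was lowest there (251, against 454 to 1121). Proximal tubule markers in Fed 5 summed to 418562, within the fasted range, and their part in these values was not tested. Hepatocyte markers (0 of 4 called) had their lowest sum of all 9 libraries in Fed 5, at 1703, against 1902 to 14252 in the other fed libraries and 3663 to 10167 in the fasted ones. The single markers did not all follow the sum. Ttr was lowest in Fed 5 (747), but Alb and Apoa1 were lower in Fed 1 (251 and 21.6) than in Fed 5 (402 and 52.7). Serpina1a was higher in Fed 5 (501) than in the other fed libraries (172 to 315). Without Fed 5 the changes of Acot1, Acot2 and Acot3 were 2.41, 2.34 and 2.09.

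To compare compartments gene by gene, the log2 difference between 2 members was taken within each library, where scaling and transcript length cancel from the shift, and tested over all assignments of libraries to groups (exact permutation test, two-sided, 9 pairs, Benjamini-Hochberg adjusted over them; the smallest p the design allows is 0.0079). The pairs were chosen with earlier results of these data known, and the adjustment over them does not cover that choice. Of the 9 pairs, 7 passed. The near copies Acot2 and Acot1, mitochondrial and cytosolic, differed in log2 change by 0.01 (SE 0.13, exact p = 0.92, adjusted p = 0.92). How reads that match both of these genes were counted is not given, and their part in this difference was not tested. Mitochondrial Acot2 and peroxisomal Acot3 differed by 0.26 (SE 0.20, exact p = 0.26, adjusted p = 0.29), and neither result shows equal change.

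Within each compartment the members moved by different amounts. In mitochondria Acot2 rose by 2.03 more than Acot9 (SE 0.21) and by 2.47 more than Acot13 (SE 0.21), each with the smallest exact p of 0.0079 (adjusted p = 0.014) and no overlap between groups. In the cytosol Acot1 rose by 2.07 more than Acot7 (SE 0.19, exact p = 0.0079, adjusted p = 0.014) and by 0.91 more than Acot12 (SE 0.18, exact p = 0.016, adjusted p = 0.020). The second of these did not pass without Fed 3 and Fasted 1 together (0.84, adjusted p = 0.073). In peroxisomes Acot3 rose by 1.63 more than Acot4 (SE 0.22, exact p = 0.0079, adjusted p = 0.014) and by 1.18 more than Acot8 (SE 0.30, exact p = 0.016, adjusted p = 0.020). Acot4 rose by less than Acot8, with a difference of -0.45 (SE 0.14, exact p = 0.0079, adjusted p = 0.014).

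**Figure D3:**
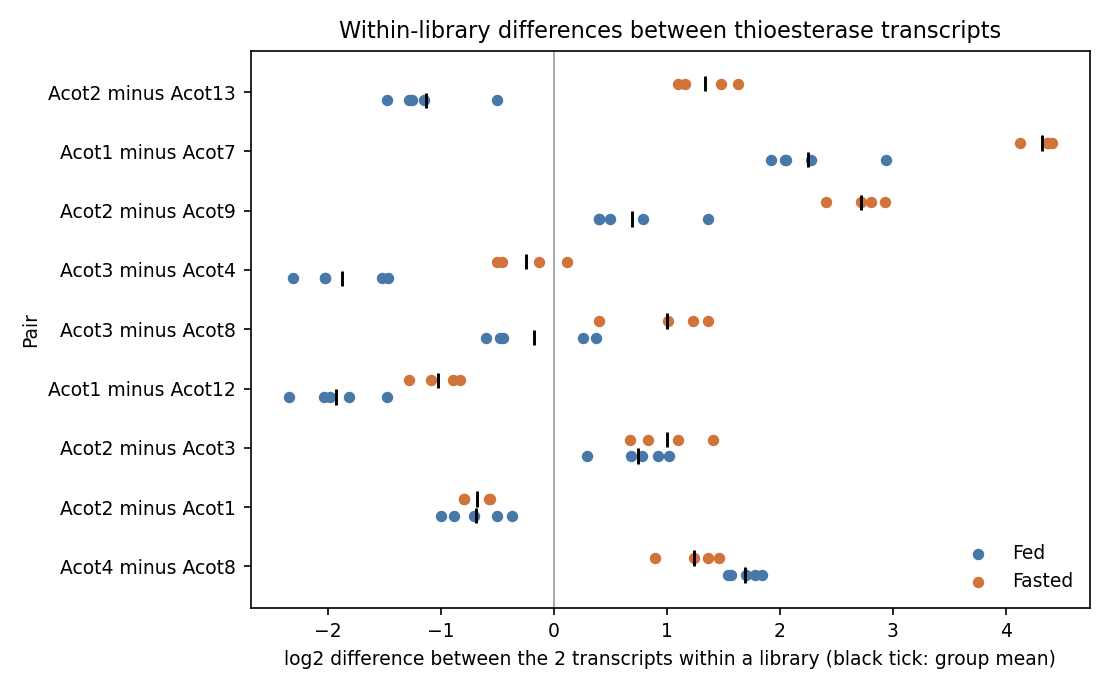
Log2 difference between 2 members within each library (horizontal axis) for the 9 pairs, with 1 point per library and a black tick at each group mean. Positions also carry transcript length, so only the shift from fed to fasted is to be read: it is 2.47 for Acot2 minus Acot13 and 0.01 for Acot2 minus Acot1.

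Levels of different genes were compared per kb of the longest coding transcript in GENCODE M21. In fed kidneys the order of normalized counts per kb was Acot13 (2623 ± 293), Acot12 (1747 ± 314), Acot1 (641 ± 244), Acot8 (505 ± 36.6), Acot2 (398 ± 89.4), Acot9 (304 ± 27.6), Acot4 (304 ± 31.1), Acot7 (194 ± 14.4) and Acot3 (157 ± 53.8). From Acot1 to Acot4 each neighbor in this order overlapped with the next, as did Acot7 with Acot3. In fasted kidneys the order was Acot12 (4287 ± 654), Acot1 (2850 ± 448), Acot13 (2186 ± 82.1), Acot2 (1835 ± 257), Acot8 (872 ± 152), Acot3 (591 ± 134), Acot4 (380 ± 8.68), Acot9 (348 ± 40.3) and Acot7 (213 ± 19.2). Here Acot13 overlapped with Acot2, Acot8 with Acot3 and Acot4 with Acot9. Acot4 has a long transcript (6203 bases, 1263 of them coding), and per kb of coding sequence it had 1491 in fed kidneys and 1865 in fasted ones. In the fed order Acot4 was then behind Acot13 and Acot12 and overlapped with Acot1 (1339 to 1706 against 797 to 1913). In the fasted order it was behind Acot12, Acot1, Acot13 and Acot2 and overlapped with Acot3. Per kb of the union of exons Acot1 had 372 in fed and 1652 in fasted kidneys. Its mean was then below that of Acot2 in both groups (398 and 1835), but the libraries of these genes overlapped in both. In fasted kidneys it was also below Acot13 (2119), without overlap.

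The summed level of the 9 members per kb rose from 6872 ± 720 in fed to 13562 ± 1299 in fasted libraries, a ratio of 1.97 given as a description. The cytosolic members made up 37.3% ± 4.27 of this sum in fed and 54.1% ± 2.54 in fasted libraries. The mitochondrial members made up 48.6% ± 4.56 and 32.3% ± 1.78, and the peroxisomal members 14.1% ± 0.780 and 13.6% ± 1.10. Fed and fasted libraries did not overlap in the cytosolic share (34.0% to 44.6% against 52.1% to 57.7%) or the mitochondrial share (41.1% to 53.0% against 29.7% to 33.4%), and they overlapped in the peroxisomal share. Acot13 is also a cytosolic protein, and the direction of both shares turned when it was counted there, an alternative chosen after seeing the data. The cytosolic share was then 75.7% ± 1.08 in fed and 70.3% ± 2.04 in fasted libraries, and the mitochondrial share 10.2% ± 0.454 and 16.1% ± 1.15, again without overlap. The mitochondrial sum in fed kidneys was mostly Acot13, which alone held 38.4% ± 4.70 of the whole family and 16.3% ± 1.91 after fasting.

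**Figure D4:**
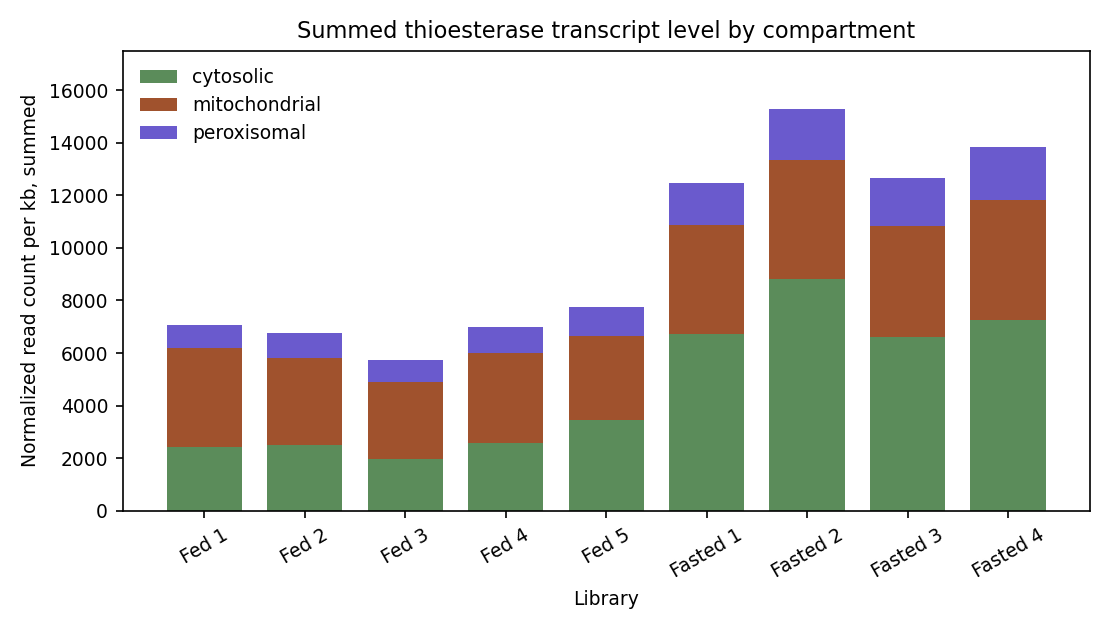
Normalized read counts per kb of transcript, summed over the 9 members and stacked by compartment (Acot13 with the mitochondrial members), for each library. The 4 fasted bars reach 12463 to 15289 and the 5 fed bars 5754 to 7739, and the cytosolic part takes most of the added height.

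A cluster of 6 thioesterase genes lies within 123 kb on chromosome 12, all on the plus strand (GENCODE M21, GRCm38), in the order Acot2 (83987861 to 83993873), Acot1 (84009490 to 84018371), Acot4 (84038379 to 84048601), Acot3 (84052144 to 84060402), Acot5 (84069325 to 84076020) and Acot6 (84100654 to 84111349). Acot2, Acot1 and Acot3 had log2 changes of 2.22, 2.21 and 1.95, and Acot4, which lies between Acot1 and Acot3, had 0.33. Acot6 rose by 0.60 (SE 0.09, limma adjusted p = 0.0024). Acot5 had 1.61 ± 0.575 in fed and 4.07 ± 1.51 in fasted kidneys, too low to be tested. Of 6 other genes tested within 200 kb of the cluster, 1 rose and none fell, against 5.72% and 5.25% of all genes tested. All 6 lay outside the cluster, the nearest being Pnma1 at 34.8 kb. The non-family genes inside the cluster, and its closest neighbors Heatr4 and Dnal1, were not matched to values. Papln, 195 kb away, changed by 1.17 (SE 0.16, limma adjusted p = 0.0013). Numb, Riox1 (2410016O06Rik in the table), Pnma1, Elmsan1 and Ptgr2 had log2 changes from -0.34 to 0.21. The other members lie elsewhere. Acot12 (91741512 to 91786148, plus strand) and Acot13 (24817948 to 24831540, minus strand) lie far apart on chromosome 13, Acot7 on chromosome 4 (152178134 to 152271855), Acot8 on chromosome 2 (164792765 to 164804882) and Acot9 on the X chromosome (155262443 to 155297654).

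How reads that match several of the type I copies were counted is not given in the sources used here, so the single values of these genes are uncertain. The coding sequences of Acot1 and Acot2 were 95.6% identical over 1236 aligned bases, while Acot3 was 83.9% identical to Acot1 and Acot4 75.5%. Of all windows of 50 bases in the Acot1 transcript, 32.1% occurred unchanged in another Acot transcript, mostly Acot2, and for Acot2 the share was 27.6%. It was 7.69% for Acot3, 4.48% for Acot4, 20.2% for Acot9 (with its intronless copy Acot10, 97.2% identical in coding sequence) and 0 for Acot7, Acot8, Acot12 and Acot13. With windows of 100 bases the shares were 21.9% for Acot1 and 17.1% for Acot2. GENCODE M21 also lists a coding gene on the same strand (Gm49366) and an antisense gene (4732463B04Rik), each of which overlaps both Acot4 and Acot3, and the sources used here do not say whether counting used strand.

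Other thioesterases, from a list of 16 genes (15 in the table, 12 tested), did not move together: 1 rose, 2 fell and 9 did not pass, with a median log2 change of 0.03. Among all genes tested, 5.72% rose and 5.25% fell. Beside Acot6, which rose, the multifunctional fatty acid synthase gene Fasn fell from 4608 ± 1019 to 3225 ± 89.9 (log2 change -0.49, SE 0.14, limma adjusted p = 0.047), and the lysosomal thioesterase gene Ppt2 from 2231 ± 449 to 1380 ± 207 (-0.68, SE 0.15, adjusted p = 0.014). Acot10 had 296 ± 32.2 and 354 ± 26.0 without passing (adjusted p = 0.11), and Acot11, a lipid-binding relative known from brown fat, had 951 ± 79.6 and 961 ± 105 (adjusted p = 0.95). Them4 (adjusted p = 0.77), Them6 (0.81), the bile acid conjugating gene Baat (0.71), the valine pathway hydrolase gene Hibch (0.45) and the depalmitoylating genes Ppt1 (0.51), Lypla1 (0.58) and Lypla2 (0.16) did not pass in limma either. Them5 and Olah were near 0 in all libraries.

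The opposite reaction is run by acyl-CoA synthetases. Of 16 tested, 4 rose and none fell, with a median log2 change of -0.0043. For this and the lists that follow, the shares over all genes tested were 5.72% higher and 5.25% lower. Acsl1, the main long-chain synthetase of oxidative tissues, rose by 1.11 (SE 0.10) and the fatty acid transport protein gene Slc27a1 by 1.15 (SE 0.11), each with a limma adjusted p of 0.000154. The other members that rose were Acsl4 (0.58, limma adjusted p = 0.024) and Acsf2 (0.77, adjusted p = 0.027). Of 19 genes for carnitine, transport and coenzyme A partners that take the same acyl-CoA, 13 rose and none fell, with a median log2 change of 0.59. Examples are Slc25a20 (1.57, SE 0.09), Cpt2 (1.13, SE 0.07), the peroxisomal fatty acid transporter gene Abcd3 (1.01, SE 0.10) and the peroxisomal coenzyme A carrier gene Slc25a17 (0.53, SE 0.07).

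In the coenzyme A synthesis list 2 of 8 genes rose and none fell. Vnn1, which recycles the vitamin part of coenzyme A, rose by 1.77 (SE 0.18, limma adjusted p = 0.00029), and Pank1, the first kinase of the route, by 0.67 (SE 0.14, adjusted p = 0.015), whereas Pank3 (0.21, adjusted p = 0.15) and Pank2 (-0.14, adjusted p = 0.20) did not pass. Among 15 tested genes of peroxisome import and number, 4 rose and none fell, led by Pex11a (1.14, SE 0.21, adjusted p = 0.0067), with Pex16 (0.50), Pex14 (0.60) and Pex13 (0.32). PPAR alpha targets other than Acot genes, a list chosen with earlier results known, rose in 19 of 20 tested cases, with a median log2 change of 1.81, among them Pdk4 (4.59, SE 0.31) and Ehhadh (1.92, SE 0.13). That list shares Vnn1 with the coenzyme A synthesis list, Pex11a with the peroxisome list, and Slc25a20 and Cpt1a with the carnitine list. None of 10 nuclear receptor and coactivator genes passed in limma. Of all genes tested, 5.72% rose and 5.25% fell, so none in 10 is near that share. Ppara itself had 5420 ± 1346 and 7609 ± 931 (adjusted p = 0.055), Ppard 651 ± 508 and 221 ± 33.3 (adjusted p = 0.089), Esrra 2789 ± 214 and 2223 ± 349 (adjusted p = 0.052) and Hnf4a 23707 ± 727 and 22345 ± 1243 (adjusted p = 0.45).

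The genes with the pattern most like Acot1 and Acot2 over the 9 libraries were found by the root-mean-square difference of log2 values, each centered on its own mean, among genes averaging 100 normalized counts or more. For Acot2 they were Ehhadh, a peroxisomal beta-oxidation enzyme (0.16), Plin5, a lipid droplet coat protein (0.20), Vnn1 (0.27), Acaa1b, a peroxisomal thiolase (0.32), and the imprinted zinc finger gene Zim1 (0.32). For Acot1 they were Plin5 (0.21), Ehhadh (0.25), Vnn1 (0.28), Kcnip2, a potassium channel partner (0.34), and Lox, a matrix cross-linking enzyme (0.35). Acot1 and Acot2 differed from each other by 0.19 on this measure, and Acot3 differed from Acot2 by 0.30 and from Acot1 by 0.41. The part of reads that match both Acot1 and Acot2 in that 0.19 was not tested.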

How the data were processed

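RNA from mouse kidney cortex was sequenced in 9 libraries (5 fed, 4 fasted). FastQC, TopHat2 2.0.9, HTSeq 0.9.1 and DESeq2 (given as version 3.5), with the builds mm10 and hg19, are named per the submitters' processing notes. The counting annotation is not given in the sources used here. The deposited signal of each library is a read count divided by 1 size factor, as tested on the file: dividing by the smallest value above 0 of a library gave whole reads, within 0.01 reads, for 161194 of 161194 values above 0 (100.0%). The deposited log2 changes with their SE, the score (their quotient), the p-values and the adjusted p-values come from the authors' fit and were used only where that is said.

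Genes averaging 10 or more normalized counts were tested with limma 3.58.1 (R 4.3.3, trend, two-sided) on log2(value + 1), Benjamini-Hochberg adjusted over all 15098, called under 0.05. Fold changes of low genes are understated on this scale. On the recovered reads edgeR 4.0.16 called 1655 genes and DESeq2 1.42.0 called 2349, against 1656 here. The gene tests were tried on counts simulated with the same dispersion for every gene, and the permutation test on drawn values. Those simulated counts held no library that stood apart, so they do not cover that feature of the data. All 16 pairs of libraries within a group differed beyond sampling noise (chi-square per degree of freedom 16.7 to 117). Libraries were numbered in accession order.

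Members, lists, pairs and alternatives were chosen with earlier results of these data known. Named were all members, the listed thioesterases, up to 4 genes with the smallest adjusted p of each other list plus Ppara, and the 5 nearest profiles of Acot1 and Acot2 (predicted and unnamed genes left out); neighbors of the cluster, Cyp4a14 and Rn45s were chosen after their values were seen. Positions and lengths came from GENCODE M21 by Ensembl identifier. Annotation term tables were not used here.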

Additional observations from a re-analysis of the deposited data

How the results depend on the processing

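Over 17 alternatives per member (other pseudocounts, filters, normalization and tools, each library left out, and Fed 3 and Fasted 1 left out together), 5 members (Acot1, Acot2, Acot3, Acot8 and Acot12) passed in all of them, and no member changed direction. Acot4 had log2 changes of 0.29 to 0.38 with 1 library left out and 0.31 without Fed 3 and Fasted 1. Acot13 had -0.30 to -0.20 with 1 library left out and -0.26 with DESeq2. The count of members called ranged from 5 to 7 with 1 library left out. The count over all genes ranged from 861 to 1959 with 1 library left out and was 1068 without Fed 3 and Fasted 1; those fits have fewer samples. TMM left the median log2 change of all genes at -0.00029, against 0.00089. Of the 9 pairs, 6 passed under all 12 alternatives. Acot1 minus Acot12 was 0.84 without Fed 3 and Fasted 1, which did not pass. Acot2 minus Acot1 ranged from -0.067 to 0.088 with 1 library left out and changed sign without Fed 2 (-0.038), Fed 5 (-0.067), Fasted 3 (-0.030) or Fasted 4 (-0.028). Per kb of coding length the mitochondrial share was 44.1% in fed and 28.9% in fasted libraries and the peroxisomal share 19.8% and 18.0%. Per kb of the union of exons the fasted cytosolic and mitochondrial shares were 50.4% and 37.0% and the fed peroxisomal share 12.1%. With Acot13 counted as cytosolic, chosen after seeing the data, the cytosolic share was 75.7% and 70.3% and the mitochondrial share 10.2% and 16.1% in fed and fasted libraries. No paired analysis was possible because the labels give no replicate numbers or pairing. Each member had at least 200 reads in every library, the fewest for Acot7 (200 to 416); the effect of depth was not tested.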
